A study of Homo sapiens with 27 samples.

Results

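The 6 shRNAs described here target the receptors of transforming growth factor β: TRCN0000039774, TRCN0000039775, TRCN0000039776 and TRCN0000039777 were assigned to TGFBR1 (TGFβRI), and TRCN0000040008 and TRCN0000040011 to TGFBR2 (TGFβRII). They were picked out of the 3177 shRNAs of a pooled kinome screen by identifier. The deposited counts list shRNAs by identifier with no gene name, and the pairing with a receptor came from the study's own listing, so the number of shRNAs of either receptor in the whole library is not known here. An shRNA is a short hairpin RNA expressed from an integrated lentivirus that silences its target. Its read count in genomic DNA stands for the share of surviving cells that carry it.

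The shRNAs were followed in 27 libraries from UMSCC1, UMSCC8 and UMSCC25, established human lines of head and neck squamous cell carcinoma (HNSCC). All cells carried the kinome shRNA library and had been selected with puromycin, the DMSO plates included. Each line gave 9 plates: 3 with DMSO as vehicle, 3 with gefitinib, a tyrosine kinase inhibitor (TKI) of the epidermal growth factor receptor (EGFR), and 3 with AZD8931, a TKI of EGFR, ERBB2 and ERBB3. The agent was present for 72 hours and recovery took 72 hours, with harvest at 144 hours. The stated concentrations were 300 nM gefitinib and 30 nM AZD8931, but another field of the labels gives 1.0 µM for either agent. Each line was transduced once, and whether its transduced plates were pooled before the cells were divided is not stated. A difference between lines therefore compares transduced populations: an effect of the line cannot be told apart from unequal transduction, and the p-values measure the spread between plates, which may be technical.

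TGFβ ligands act through a pair of transmembrane serine/threonine kinases. TGFβRII binds the ligand and phosphorylates TGFβRI, which then phosphorylates the SMAD2 and SMAD3 transcription factors. In epithelia the pathway is known for restraining proliferation, and in carcinomas also for promoting motility and epithelial-mesenchymal transition. A screen of this kind asks which silenced kinases leave cells less fit when EGFR is inhibited. GENCODE release 29 (GRCh38) places TGFBR1 at chr9:99104038-99154192 and TGFBR2 at chr3:30606502-30694142, each on the + strand. The target site of each shRNA within its gene is not given in the sources used here.

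Library totals ranged from 178406 to 559422 counts with a median of 460550. A count of 0 allows up to 3 counts, or 5.38 CPM in the library with the largest scaled total and 16.6 CPM in the shallowest, by counting error only, where CPM is the count relative to the library total in units of 1e+06, scaled by TMM over the 27 libraries. All 27 libraries correlated best with libraries of their own line. A total of 3 libraries stood apart in earlier results on these data: UMSCC8 DMSO replicate 1 had 328 shRNAs at 0 against 81 to 139 in the rest of its line, UMSCC1 AZD8931 replicate 1 had 354 at 0, and UMSCC1 DMSO replicate 2 had 14.0% of its counts in a single shRNA. Many of the values that moved by much when one of them was left out are given with and without it. The 6 receptor shRNAs were scarce and uneven: their summed counts over the 27 libraries ran from 261 for TRCN0000039774, which was at 0 in 7 libraries, to 1448 for TRCN0000039777. TRCN0000040008 was at 0 in 3 libraries, and the remaining 4 were counted in all 27. All 6 passed the filter of 10 summed counts in each fit.

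With vehicle alone, the difference between lines with the lowest p among the 6 shRNAs was that of TRCN0000040008, against TGFBR2. It was counted in UMSCC8 at 326, 78.8 and 57.4 CPM (150, 36 and 32 counts), in UMSCC1 at 24.4, 111 and 27.4 CPM (11, 23 and 14 counts) and in UMSCC25 at 16.5, 12.4 and 8.18 CPM (8, 6 and 4 counts). The means were 154 ± 149, 54.1 ± 48.9 and 12.4 ± 4.17 CPM (SD, n = 3). Every UMSCC8 plate, and every UMSCC1 plate, lay above every UMSCC25 plate, while UMSCC8 and UMSCC1 overlapped. Such separation was common, since 26.9% of all 3121 shRNAs tested did not overlap between UMSCC8 and UMSCC25, and 27.9% between UMSCC1 and UMSCC25. TRCN0000040008 was 12.4-fold higher in UMSCC8 than in UMSCC25, a log2 difference of 3.63 (SE 0.89, 95% interval 1.75 to 5.52), with an adjusted p of 0.0668 by edgeR's quasi-likelihood test with Benjamini-Hochberg adjustment over all shRNAs. Of all shRNAs, 0.737% passed 0.05 in this comparison. DESeq2 gave an adjusted p of 0.00266, and over the 13 alternatives it ranged from 0.00266 to 0.284. Without UMSCC8 DMSO replicate 1 the log2 difference was 2.47 (adjusted p = 0.226 by edgeR). Between UMSCC1 and UMSCC25 the log2 difference was 2.06 (SE 0.88, adjusted p = 0.197 by edgeR), and without UMSCC1 DMSO replicate 2 it was 1.04. UMSCC1 was below UMSCC8 by a log2 difference of -1.57 (SE 0.82, adjusted p = 0.271 by edgeR), which was -0.40 without UMSCC8 DMSO replicate 1 and -2.61 without UMSCC1 DMSO replicate 2.

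The second TGFBR2 shRNA, TRCN0000040011, had nearly even vehicle levels. The plates of UMSCC1 held 111, 115 and 48.9 CPM (91.7 ± 37.1, SD, n = 3), those of UMSCC8 102, 105 and 174 CPM (127 ± 40.6) and those of UMSCC25 107, 111 and 149 CPM (123 ± 23.1). The lines overlapped in every pairing. UMSCC8 and UMSCC25, the neighbors at the top of this order, differed by 0.08 on the log2 scale, with a 95% interval of -0.996 to 1.15. UMSCC1 was 0.50 below UMSCC8 and 0.42 below UMSCC25 (SE 0.52 each), with adjusted p-values of 0.635 and 0.723 by edgeR. The line that stood out for TRCN0000040008, UMSCC25, was thus not the lowest for TRCN0000040011.

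Among the TGFBR1 shRNAs, TRCN0000039774 gave the widest differences between lines. Its UMSCC1 plates held 193, 57.7 and 13.7 CPM (87, 12 and 7 counts), its UMSCC8 plates 0, 10.9 and 8.96 CPM (0, 5 and 5 counts) and its UMSCC25 plates 6.19, 0 and 34.8 CPM (3, 0 and 17 counts). The means were 88.1 ± 93.3, 6.63 ± 5.83 and 13.7 ± 18.5 CPM (SD, n = 3), and a single UMSCC1 plate held 82.1% of that line's vehicle counts. All UMSCC1 plates lay above all UMSCC8 plates, as 24.8% of all shRNAs did not overlap between these lines, whereas UMSCC1 overlapped with UMSCC25. UMSCC1 exceeded UMSCC8 by a log2 difference of 3.64 (SE 1.43, 95% interval 0.62 to 6.66), with an adjusted p of 0.146 by edgeR, where 4.97% of all shRNAs passed 0.05. DESeq2 placed it just under the threshold at an adjusted p of 0.0498, and the 13 alternatives ranged from 0.0498 to 0.496. Without UMSCC1 DMSO replicate 1 the log2 difference was 2.34. UMSCC1 exceeded UMSCC25 by 2.67 (SE 1.35, adjusted p = 0.285 by edgeR), a value that was 1.35 without UMSCC1 DMSO replicate 1 and 4.71 without UMSCC25 DMSO replicate 3.

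TRCN0000039776 had its lowest mean vehicle level in UMSCC1. UMSCC25 held 103, 88.6 and 47.0 CPM (79.6 ± 29.2, SD, n = 3), UMSCC8 2.17, 72.2 and 68.1 CPM (47.5 ± 39.3) and UMSCC1 31.0, 33.6 and 13.7 CPM (26.1 ± 10.8). All UMSCC1 plates lay below all UMSCC25 plates, where 27.9% of all shRNAs did not overlap. UMSCC8 overlapped with both. The log2 difference of UMSCC1 from UMSCC25 was -1.61 (SE 0.97, adjusted p = 0.373 by edgeR, where 5.19% of all shRNAs passed 0.05), and that of UMSCC1 from UMSCC8 was -0.91 (adjusted p = 0.641 by edgeR), or -1.47 without UMSCC8 DMSO replicate 1. These 2 shRNAs of the same receptor thus had fitted differences of opposite sign between the same lines, with 95% intervals of -0.18 to 5.52 for TRCN0000039774 and -3.67 to 0.44 for TRCN0000039776, which overlap.

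The vehicle plates of the other two TGFBR1 shRNAs overlapped between all lines. TRCN0000039775 was at 133, 168 and 39.1 CPM in UMSCC1, at 220, 17.5 and 46.6 CPM in UMSCC8 and at 103, 57.7 and 79.7 CPM in UMSCC25. The UMSCC8 values spanned those of both other lines, and 74.8% of the counts behind them came from replicate 1. TRCN0000039777 had the highest mean vehicle level of the TGFBR1 shRNAs in each line. Its plates held 82.0, 269 and 70.4 CPM in UMSCC1 and 176, 107 and 185 CPM in UMSCC8. In UMSCC25 they held 206, 98.9 and 219 CPM. Single plates departed from this order. In UMSCC1 replicate 1, TRCN0000039774 (193 CPM) and TRCN0000039775 (133 CPM) lay above it, as did TRCN0000039775 in UMSCC8 replicate 1 (220 CPM). The log2 differences of TRCN0000039777 between lines lay from -0.33 to -0.14, and the adjusted p-values from 0.807 to 0.934 by edgeR. Without UMSCC1 DMSO replicate 2, the plate at 269 CPM, UMSCC1 was -1.21 from UMSCC25 (adjusted p = 0.234 by edgeR) and -1.07 from UMSCC8 (adjusted p = 0.279 by edgeR). For TRCN0000039775 the log2 differences were 0.49 (UMSCC1 over UMSCC25), 0.24 (UMSCC1 over UMSCC8) and 0.25 (UMSCC8 over UMSCC25), with SEs of 0.77. Without UMSCC8 DMSO replicate 1 and UMSCC1 DMSO replicate 2, the latter pair of values became 1.36 and -1.26.

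In total, 0 of the 6 receptor shRNAs passed an adjusted p of 0.05 between vehicle plates of any pair of lines by edgeR. In each pairing 1 of 6 had an unadjusted p under 0.05, against 19.9% of all shRNAs for UMSCC1 and UMSCC25, 22.2% for UMSCC1 and UMSCC8 and 15% for UMSCC8 and UMSCC25, and DESeq2 called 0, 1 and 1 of the 6 in this order, against 9.48%, 10.6% and 4.97% of all shRNAs. The study listed the receptor shRNAs from the UMSCC25 and UMSCC8 libraries, the DMSO plates included, so the vehicle levels of those lines are not independent of how the shRNAs came to be named. The UMSCC1 libraries had no part in that listing.

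Among all shRNAs, the receptor shRNAs were of middling to low vehicle abundance. The median of all shRNAs was 152 CPM in UMSCC1, 156 in UMSCC8 and 151 in UMSCC25, and 17 of the 18 mean levels (6 shRNAs in 3 lines) lay below it. The exception was TRCN0000039777 in UMSCC25 at 175 ± 65.9 CPM (SD, n = 3), the 55.3rd percentile. The lowest was TRCN0000039774 in UMSCC8, at the 3.23rd percentile. The abundance of an shRNA also depends on its share of the plasmid pool, which was not analysed here, so a low level does not by itself show loss from the cells.

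In UMSCC1, gefitinib gave no common shift of the TGFBR1 shRNAs. TRCN0000039774 was at 0, 18.8 and 7.25 CPM with gefitinib, against 193, 57.7 and 13.7 with DMSO. The ranges overlapped, since DMSO replicate 3 lay below gefitinib replicate 2. The log2 fold change was -3.30 (SE 1.48, 95% interval -6.39 to -0.21), with an unadjusted p of 0.0377 and an adjusted p of 1.00 by edgeR. Without DMSO replicate 1, it was -2.03 (unadjusted p = 0.269 by edgeR). TRCN0000039775 held 220, 118 and 163 CPM with gefitinib and TRCN0000039776 held 27.9, 93.9 and 21.7 CPM, each overlapping its DMSO plates. Groups without overlap made up 11.6% of all shRNAs in this comparison. The log2 fold changes of these shRNAs were 0.62 (SE 0.70) and 0.93 (SE 1.07). TRCN0000039777, at 41.0, 137 and 185 CPM, gave -0.17 (SE 0.69), which became 0.68 without DMSO replicate 2.

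The TGFBR2 shRNAs were slightly lower on average with gefitinib in UMSCC1, within the spread of plates. TRCN0000040008 was at 35.4, 26.8 and 32.6 CPM, which fell inside the DMSO range of 24.4 to 111 CPM. Its log2 fold change was -0.70 (95% interval -3.35 to 1.94), and it became 0.31 without DMSO replicate 2. TRCN0000040011 was at 106, 37.6 and 72.5 CPM, with a log2 fold change of -0.29 (95% interval -1.94 to 1.36). By edgeR 0 of the 6 receptor shRNAs passed an adjusted p of 0.05, as did 0% of all 3083 shRNAs tested, and DESeq2 also called 0. An unadjusted p under 0.05 was reached by 1 of 6, against 3.7% of all shRNAs.

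AZD8931 in UMSCC1 put the fitted value of each of the 6 receptor shRNAs below that of DMSO, against 50.2% of all shRNAs. The largest was that of TRCN0000039774, at 0, 69.6 and 4.03 CPM, with a log2 fold change of -1.91 (SE 1.39, adjusted p = 0.689 by edgeR). Replicate 2 alone held 89.5% of its AZD8931 counts, and the log2 fold change was -5.07 without it and -0.59 without DMSO replicate 1. TRCN0000039775 was at 18.0, 111 and 107 CPM (-0.51), TRCN0000039776 at 35.9, 20.5 and 12.1 CPM (-0.12) and TRCN0000039777 at 95.8, 65.5 and 82.7 CPM (-0.71). The TGFBR2 shRNA TRCN0000040008 was at 0, 81.9 and 2.02 CPM (-1.01), and TRCN0000040011 at 174, 36.9 and 32.3 CPM (-0.07). For each of the 6, the AZD8931 and DMSO plates overlapped, whereas 12.3% of all shRNAs did not, and the adjusted p-values lay between 0.689 and 0.995 by edgeR. The shared direction was not kept when plates were left out, whether libraries that stood apart or others. Without AZD8931 replicate 2 alone, TRCN0000040011 gave 0.29, and without AZD8931 replicate 3 alone, TRCN0000039776 gave 0.16. Without AZD8931 replicate 1 and DMSO replicate 2, the log2 fold changes were -1.54, 0.35, -0.48 and -0.04 for TRCN0000039774 to TRCN0000039777, 0.62 for TRCN0000040008 and -1.20 for TRCN0000040011, so that 4 of 6 stayed below 0. By edgeR 0% of all shRNAs passed 0.05, and 9.5% had an unadjusted p under 0.05, a level that 0 of the 6 reached. DESeq2 called 24 of all shRNAs (0.778%) and none of the 6.

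Directly compared in UMSCC1, AZD8931 and gefitinib differed without overlap for 1 of the 6, the TGFBR1 shRNA TRCN0000039775, against 18.3% of all shRNAs. All its AZD8931 plates (18.0, 111 and 107 CPM) lay below all its gefitinib plates (220, 118 and 163 CPM). The log2 difference was -1.13 (SE 0.70, 95% interval -2.60 to 0.34), with an adjusted p of 0.485 by edgeR. Without AZD8931 replicate 1 it was -0.68. The values for TRCN0000039774, TRCN0000039776 and TRCN0000039777 were 1.39, -1.04 and -0.55, and those for TRCN0000040008 and TRCN0000040011 -0.31 and 0.22. Without AZD8931 replicate 1, TRCN0000039776 gave -1.62 and TRCN0000040011 -1.12. None passed 0.05, as 0.0324% of all shRNAs did by edgeR and 3.15% by DESeq2, and 0 of the 6 had an unadjusted p under 0.05, against 14.4% of all shRNAs. The agents differed in concentration, so this sets a pair of treatments side by side.

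In UMSCC8 with AZD8931, the fitted values of 5 of the 6 receptor shRNAs lay below DMSO, against 49% of all shRNAs. TRCN0000040011 was at 37.7, 95 and 82.0 CPM (71.6 ± 30.0, SD, n = 3), every plate below the DMSO plates at 102, 105 and 174 CPM, where 15.9% of all shRNAs did not overlap. Its log2 fold change was -0.83 (SE 0.59, 95% interval -2.09 to 0.43), with an adjusted p of 0.806 by edgeR. TRCN0000040008 was at 63.6, 144 and 59.6 CPM, within its DMSO range of 57.4 to 326 CPM. The log2 fold change was -0.78 (SE 0.66), and 0.40 without DMSO replicate 1. Of the TGFBR1 shRNAs, TRCN0000039774 gave 1.69 (16.5, 7.60 and 42.9 CPM against 0, 10.9 and 8.96), TRCN0000039775 -0.38, TRCN0000039776 -0.20 and TRCN0000039777 -0.69, each overlapping its DMSO plates. Without DMSO replicate 1, TRCN0000039775 gave 1.16 and TRCN0000039776 -0.74. By edgeR 0% of all 3118 shRNAs tested passed 0.05 and 7.12% had an unadjusted p under 0.05, 0 of the 6 among them, and DESeq2 called 0. These libraries share their DMSO plates with the gefitinib comparison from which the study listed the TGFBR2 shRNAs.

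For gefitinib in UMSCC8 and either agent in UMSCC25, the study listed receptor shRNAs from the same libraries, and the values are given as a description. In UMSCC8 with gefitinib, TRCN0000040011 was at 46.6, 38.7 and 11.1 CPM, below all DMSO plates, where 17.9% of all shRNAs did not overlap, with a log2 fold change of -1.93. The 11.1 CPM was 2 counts in gefitinib replicate 3, and the log2 fold change was -1.60 without that library. TRCN0000040008 gave -1.33, but -0.15 without DMSO replicate 1. The TGFBR1 shRNAs had no common sign, with TRCN0000039774 at 1.60, TRCN0000039775 at -0.72, TRCN0000039776 at 0.25 and TRCN0000039777 at -0.63. TRCN0000039774 was at 24.5, 12.9 and 27.7 CPM, all above DMSO, but on 10, 7 and 5 counts against 0, 5 and 5. Its 27.7 CPM came from 5 counts in replicate 3, the shallowest library, where a count of 0 allows up to 16.6 CPM. Without DMSO replicate 1, TRCN0000039775 gave 0.81 and TRCN0000039776 -0.30.

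In UMSCC25 with gefitinib, TRCN0000039774 had 0 counts in all 3 plates against 3, 0 and 17 with DMSO. A count of 0 allowed up to 2.43 CPM over the sum of the 3 gefitinib plates, and the DMSO mean was 13.7 CPM. TRCN0000039775, TRCN0000039776 and TRCN0000039777 gave log2 fold changes of 0.51, -0.33 and 0.20, and the TGFBR2 shRNAs TRCN0000040008 and TRCN0000040011 gave -0.43 and -0.81. With AZD8931, TRCN0000039774 was instead counted on every plate (11, 12 and 16 counts) with a log2 fold change of 1.12. TRCN0000039775, TRCN0000039776 and TRCN0000039777 gave -0.94, -0.51 and -1.25, and TRCN0000040008 and TRCN0000040011 gave -0.69 and -1.16. TRCN0000040011 was at 63.4, 43.8 and 55.0 CPM, below all DMSO plates at 107, 111 and 149 CPM, where 19.2% of all shRNAs did not overlap. With gefitinib none of the 6 was free of overlap, against 14.8% of all shRNAs. By edgeR 0% of all shRNAs passed 0.05 for gefitinib in UMSCC8 or for either agent in UMSCC25, while DESeq2 called 76 (2.44%), 14 (0.453%) and 8 (0.259%).

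The fitted log2 fold change of an agent against DMSO was below 0 for 49% of all shRNAs with gefitinib and 50.2% with AZD8931 in UMSCC1, 49.7% and 49% in UMSCC8, and 50.3% and 49.7% in UMSCC25. Set side by side over these 6 comparisons, the TGFBR2 shRNAs had fitted log2 fold changes below 0 in all 6, from -1.93 to -0.07 for TRCN0000040011 and from -1.33 to -0.43 for TRCN0000040008. Without the libraries that stood apart, TRCN0000040008 was above 0 in UMSCC1 with either agent (0.29 and 0.62) and in UMSCC8 with AZD8931 (0.40). Leaving out 1 plate at a time also turned TRCN0000040008 in UMSCC25 with gefitinib in 2 of 6 fits (0.14 without gefitinib replicate 1). The sign of TRCN0000040011 in UMSCC1 with AZD8931 turned in 4 of 6 such fits (0.29 without AZD8931 replicate 2). The comparisons within a line share their DMSO plates, so these are not 6 separate observations. The study listed both TGFBR2 shRNAs from gefitinib in UMSCC8 and from either agent in UMSCC25. Their signs there are not independent of that listing, and AZD8931 in UMSCC8 shares its DMSO plates. The TGFBR1 shRNAs were below 0 in 3 of 6 comparisons for TRCN0000039774, 4 of 6 for TRCN0000039775 and TRCN0000039776, and 5 of 6 for TRCN0000039777. None of these values passed an adjusted p of 0.05 by edgeR or DESeq2. At an unadjusted p under 0.05 by edgeR there were 2 each for TRCN0000039774 and TRCN0000040011 and 0 for the remaining 4 shRNAs. The 4 values were those of TRCN0000039774 with gefitinib in UMSCC1 and UMSCC25 and of TRCN0000040011 with gefitinib in UMSCC8 and AZD8931 in UMSCC25. Of all shRNAs, 13%, 7.51% and 9.32% reached it for gefitinib in UMSCC8, gefitinib in UMSCC25 and AZD8931 in UMSCC25. The study had listed the shRNA concerned from each of these comparisons, so those values are a description.

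Whether an agent acted differently in UMSCC1 than in the other lines was tested as an interaction of line and agent over the 27 libraries. The study listed receptor shRNAs from gefitinib in UMSCC25 and UMSCC8 and from AZD8931 in UMSCC25. The interactions that involve these comparisons are therefore a description, and AZD8931 in UMSCC8 shares its DMSO plates with that listing. By edgeR 0 of the 6 receptor shRNAs passed in any of the 4 interactions, with adjusted p-values from 0.468 to 1.00. Among all 3135 shRNAs tested, 0 passed for the gefitinib effect in UMSCC1 against UMSCC25 or UMSCC8, and for AZD8931 2 (0.0638%) passed against UMSCC25 and 0 against UMSCC8. DESeq2 called 2, 3, 67 and 4 shRNAs in this order (0.0638%, 0.0957%, 2.14% and 0.128%) and none of the 6. The lowest p was that of TRCN0000039774 for the gefitinib effect in UMSCC1 against UMSCC8, 0.0193 unadjusted and an adjusted p of 0.558 by edgeR. It was the only value of the 6 under 0.05 before adjustment, a level that 8.1% of all shRNAs reached. For the gefitinib effect against UMSCC25 and the AZD8931 effect against UMSCC25 and UMSCC8, that share of all shRNAs was 6%, 12.3% and 12.1%. These tests had SEs of 0.93 to 2.08 on the log2 scale for the 6, and their 95% intervals included a 2-fold difference in at least one direction for each.

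The precision of the UMSCC1 screen set how far the shRNAs of one receptor could be compared. With gefitinib, the 95% intervals of 5 of the 6 included a 2-fold lower value and those of 5 a 2-fold higher value; with AZD8931, 6 and 4 did. The median SE over all shRNAs was 0.63 with gefitinib and 0.64 with AZD8931, against 0.93 and 0.94 over the 6 receptor shRNAs. For TGFBR1 the fitted log2 fold changes with gefitinib spread over 4.22, from -3.30 to 0.93, and with AZD8931 over 1.79. For TGFBR2 they spread over 0.41 and 0.94. The SEs of the TGFBR2 values in UMSCC1 were 0.79 to 1.30, so the closeness of the pair was within the error of either value.

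Within a library the ratio of 2 shRNAs of a receptor does not depend on how libraries were scaled. For TGFBR2, the log2 ratio of TRCN0000040008 to TRCN0000040011 (0.5 added to each count) in DMSO plates was -2.63, -3.07 and -4.03 in UMSCC25, a mean of -3.24 ± 0.72 (SD, n = 3). In UMSCC1 it was -2.13, -0.06 and -0.81 (mean -1.003 ± 1.05), and in UMSCC8 1.66, -0.41 and -1.58 (mean -0.11 ± 1.65). Every UMSCC25 plate lay below every plate of the other lines. How often ratios of other shRNA pairs do so was not counted. Of single shRNAs, 26.9% did not overlap between UMSCC8 and UMSCC25, and 27.9% between UMSCC1 and UMSCC25. On the scale of mean CPM, the more abundant TGFBR2 shRNA exceeded the other 1.69-fold in UMSCC1, 1.21-fold in UMSCC8 and 9.93-fold in UMSCC25. In UMSCC8 the higher mean was that of TRCN0000040008, which exceeded TRCN0000040011 in replicate 1 (326 against 102 CPM) and lay below it in replicates 2 and 3 (78.8 against 105 and 57.4 against 174 CPM).

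For TGFBR1, the ratios of TRCN0000039774 to the other shRNAs differed in how far the lines were separated. Its log2 ratio to TRCN0000039776 was 2.59, 0.74 and 0.00 in the DMSO plates of UMSCC1, against -1.58, -2.61 and -2.81 in UMSCC8 and -3.85, -6.44 and -0.43 in UMSCC25, so no UMSCC1 plate overlapped with the other lines. Its ratio to TRCN0000039775 did overlap, at 0.53, -1.51 and -1.45 in UMSCC1, -7.67, -0.63 and -2.27 in UMSCC8 and -3.85, -5.83 and -1.17 in UMSCC25. Its ratio to TRCN0000039777 kept all UMSCC1 plates above the other lines, at 1.22, -2.18 and -2.28. UMSCC8 was at -7.35, -3.17 and -4.23, and UMSCC25 at -4.84, -6.60 and -2.62. TRCN0000039774 had 0 counts in UMSCC8 replicate 1 and UMSCC25 replicate 2, so its ratios there depended on the added 0.5. With 1 added, they were -6.67 and -4.86 to TRCN0000039775, -1 and -5.46 to TRCN0000039776, and -6.36 and -5.61 to TRCN0000039777. How often ratios of other shRNA pairs separate the lines was not counted. The ratio of TRCN0000039775 to TRCN0000039777 was steadier in UMSCC25 (-0.99, -0.77 and -1.44) than in UMSCC8 (0.32, -2.54 and -1.97), where replicate 1 was the high value. TRCN0000039776 was below TRCN0000039777 in all 9 DMSO plates, by -5.76 to -0.16 on the log2 scale. The highest mean CPM exceeded the lowest 5.38-fold in UMSCC1, 23.5-fold in UMSCC8 and 12.8-fold in UMSCC25.

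The summed levels of a receptor's shRNAs overlapped between lines with vehicle, except for those of TGFBR2 in UMSCC8 and UMSCC25. Between these lines 26.9% of single shRNAs did not overlap, and the share for sums of shRNAs was not counted. TGFBR1 shRNAs summed to 368 ± 205 CPM in UMSCC1 DMSO plates, 305 ± 95.1 in UMSCC8 and 348 ± 91.3 in UMSCC25 (SD, n = 3). TGFBR2 shRNAs summed to 146 ± 75.4, 281 ± 130 and 135 ± 19.4 CPM. In UMSCC1 the TGFBR1 sum was 344 ± 48.5 CPM with gefitinib and 207 ± 58.2 with AZD8931, and the TGFBR2 sum 104 ± 38.6 and 109 ± 70.2 CPM. Each of these ranges overlapped with DMSO.

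Of the 6 identifiers whose number lies next to one of the receptor shRNAs, 5 were listed in the counts; the files pair them with no gene, and none is assigned here. TRCN0000040009, TRCN0000040010 and TRCN0000040012 were abundant, with mean DMSO levels in UMSCC1, UMSCC8 and UMSCC25 of 645, 419 and 415 CPM, of 1330.5, 958 and 1620 CPM, and of 356, 538 and 511 CPM. TRCN0000039773 (30.2, 52.0 and 39.7 CPM) and TRCN0000039778 (18.9, 44.5 and 39.8 CPM) were in the range of the scarcer TGFBR1 shRNAs. Over the 27 libraries, the identifier whose log2 CPM ran most alike to the mean of the TGFBR1 shRNAs was TRCN0000021545 (Pearson r = 0.62), and for TGFBR2 it was TRCN0000000372 (r = 0.66). They were the highest of 3129 candidates, whose 95th percentiles were 0.38 and 0.40. The libraries share lines and depth, and such a correlation is a description only.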

How the data were processed

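Line, agent and replicate of the 27 libraries were read from their labels. The authors deposited 1 table of raw counts per shRNA, with no normalization. The submitters' notes name Bowtie 1.0.0, edgeR and hg19 without their role, and the methods cite BiNG!S. No per-sample column was left out. Gene positions came from GENCODE release 29 (GRCh38).

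The main test was edgeR's robust quasi-likelihood F test (version 4.0.16, R 4.3.3) after TMM scaling, a minimum of 10 counts summed over the fitted libraries and Benjamini-Hochberg adjustment over all shRNAs, at 0.05. One fit held the 9 DMSO libraries, 1 the 9 libraries of each line and 1 all 27 (interactions, given for the 6 shRNAs by count and range). The SE was |log2 fold change| divided by the square root of F. The script was tested on simulated data. Alternatives were RLE size factors, total counts only, 1 summed count, DESeq2 1.42.0, a replicate block, all 27 libraries in 1 fit, and leaving out each library or those that stood apart. Replicate pairs differed beyond sampling noise (reduced chi-square 6.21 to 43.1 over 27 pairs). The shRNAs, lists and libraries to leave out were chosen with earlier results of these data known. By rule the 6 shRNAs, their numerical neighbors and the identifier most alike to each receptor are named. Sequences of the shRNAs and the genome-wide screen were not analysed here.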

Additional observations from a re-analysis of the deposited data

Results flagged for a closer look

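Over the 9 libraries of a line, a single plate lay far above the others in 5 of 18 sets (6 shRNAs in 3 lines). The rule took the gap to the next plate as a share of the range. It marked a high plate in 13.0% of the 9291 sets of all shRNAs with at least 10 counts in a line. A high or low plate was marked in 13.7%. The 9 libraries mix agents, so a plate can also stand out through its agent. For TGFBR1 in UMSCC1, TRCN0000039774 reached 193 CPM in DMSO replicate 1, with the next plate at 69.6 CPM, and TRCN0000039776 reached 93.9 CPM in gefitinib replicate 2, with the next at 35.9 CPM. In UMSCC8, DMSO replicate 1 was the high plate for the TGFBR1 shRNA TRCN0000039775 (220 CPM, next 111 CPM) and for the TGFBR2 shRNA TRCN0000040008 (326 CPM, next 144 CPM). This is the library with 328 shRNAs at 0, and values of both shRNAs without it are given with their results. In UMSCC25, TRCN0000039775 reached 255 CPM in gefitinib replicate 3, with the next plate at 103 CPM. In each of the 5 sets the high plate held a count of 35 to 150, and what made it high was not tested.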

How the results depend on the processing

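By edgeR, 0 of the 6 receptor shRNAs passed an adjusted p of 0.05 in any comparison under any alternative that was run, whereas DESeq2 called 1 of 6 between UMSCC1 and UMSCC8 (TRCN0000039774) and 1 between UMSCC8 and UMSCC25 (TRCN0000040008) with vehicle. For the 60 values of single shRNAs, leaving out 1 library at a time turned the sign in 43 fits and kept it in 317. The other alternatives turned it in 18 fits. None of the 60 values was called in the main edgeR fit, whether or not its sign turned. Unless a missing library is named, the cause of a change was not tested. Depth limits the scarcest shRNA, TRCN0000039774, with 261 counts in all.

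The counts of all shRNAs called moved more. DESeq2 called 296, 332 and 155 with vehicle (UMSCC1 against UMSCC25, UMSCC1 against UMSCC8, UMSCC8 against UMSCC25; edgeR 162, 155 and 23). It called 24 for AZD8931 in UMSCC1, 97 for AZD8931 against gefitinib there, 76 for gefitinib in UMSCC8, 14 for gefitinib and 8 for AZD8931 in UMSCC25, and 2, 3, 67 and 4 in the interactions. All 27 libraries in 1 fit gave 1 for gefitinib and 4 for AZD8931 in UMSCC1, and 132 between these agents. Total counts only gave 1 for the AZD8931 effect in UMSCC1 against UMSCC25 and moved the median of all shRNAs by -0.16 (UMSCC1 against UMSCC25) and -0.20 (against UMSCC8) with vehicle. It turned TRCN0000039775 to -0.012 (UMSCC1 against UMSCC8) and TRCN0000040011 to -0.078 (AZD8931 against gefitinib, UMSCC1).

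The replicate numbers did not pair the samples: same-numbered libraries of a line had deviations that correlated from -0.16 to 0.17. With a replicate block, the vehicle comparisons called 157, 141 and 15 shRNAs in the order above, AZD8931 against gefitinib in UMSCC1 called 0, and the AZD8931 effect in UMSCC1 against UMSCC25 called 0. The block turned TRCN0000039775 to -0.17 (UMSCC8 against UMSCC25) and 0.13 (AZD8931, UMSCC8), TRCN0000039776 to 0.087 (AZD8931, UMSCC8), TRCN0000040008 to 0.042 (gefitinib, UMSCC1) and TRCN0000040011 to -0.11 (AZD8931 against gefitinib, UMSCC1).

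Without the 3 libraries that stood apart, 1 shRNA was called for AZD8931 in UMSCC1 and 0 for its effect against UMSCC25. In UMSCC1 the sign turned for TRCN0000039775 (AZD8931, 0.35), TRCN0000039777 (gefitinib, 0.66), TRCN0000040008 (gefitinib 0.29, AZD8931 0.62, AZD8931 against gefitinib 0.33) and TRCN0000040011 (AZD8931 against gefitinib, -1.08). In UMSCC8 it turned for TRCN0000039775 (gefitinib 0.81, AZD8931 1.16), TRCN0000039776 (gefitinib, -0.30) and TRCN0000040008 (AZD8931, 0.40), and between UMSCC8 and UMSCC25 for TRCN0000039775 (-1.26).

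Leaving out 1 library at a time, counts of all shRNAs called with vehicle ranged from 38 (without UMSCC25 replicate 3) to 165 (UMSCC1 against UMSCC25), 83 (without UMSCC8 replicate 3) to 195 (UMSCC1 against UMSCC8) and 0 (without UMSCC25 replicate 1) to 18 (UMSCC8 against UMSCC25). They ranged from 0 to 1 for AZD8931 in UMSCC1, 0 to 46 for AZD8931 against gefitinib (46 without AZD8931 replicate 2), and 0 to 2, 0 to 1 and 0 to 28 for the gefitinib effect against UMSCC25, against UMSCC8 and the AZD8931 effect against UMSCC25 (28 without AZD8931 replicate 2). The log2 values whose sign turned ranged as follows. With vehicle they were -1.56 to 1.07 for TRCN0000039774, -1.28 to 0.76 for TRCN0000039775, -0.42 to 0.066 for TRCN0000039777 and -0.20 to 0.24 for TRCN0000040011 (UMSCC8 against UMSCC25), and -0.27 to 1.77 for TRCN0000039775 and -1.07 to 0.13 for TRCN0000039777 (UMSCC1 against UMSCC8). For gefitinib in UMSCC1 they were -0.056 to 1.23 for TRCN0000039776, -0.65 to 0.68 for TRCN0000039777 and -1.11 to 0.31 for TRCN0000040008. For AZD8931 in UMSCC1 they were -0.70 to 0.16 for TRCN0000039776, -1.07 to 0.13 for TRCN0000039777, -5.18 (without AZD8931 replicate 2) to 0.0086 for TRCN0000040008 and -1.41 to 0.29 for TRCN0000040011. AZD8931 against gefitinib gave -1.77 to 2.58 for TRCN0000039774, -4.47 to 0.32 for TRCN0000040008 and -1.12 to 0.60 for TRCN0000040011. In UMSCC8 gefitinib gave -1.21 to 0.81 for TRCN0000039775 and -0.30 to 0.70 for TRCN0000039776, and AZD8931 gave -0.87 to 1.16 for TRCN0000039775, -0.74 to 0.23 for TRCN0000039776 and -1.32 to 0.40 for TRCN0000040008. Gefitinib in UMSCC25 gave -0.77 to 0.94 for TRCN0000039775, -0.85 to 0.17 for TRCN0000039776, -0.19 to 0.66 for TRCN0000039777 and -3.16 to 0.14 for TRCN0000040008.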
